A study of Mus musculus with 2 samples.

Results

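Gpha2-high limbal epithelial cells were described in single-cell transcriptomes of the mouse cornea and limbus, the rim of tissue that surrounds the cornea, with and without an alkali burn. The study set 1 wild-type mouse that was left uninjured beside 1 wild-type mouse whose eye was injured with sodium hydroxide (NaOH), and it concerns the signals that such a burn sets off. Both animals carried the genotype wt, and each gave 1 droplet-based 10x Genomics library. The sources used here do not give strain, age or the time from injury to collection. Per the labels' protocols, the lens, retina, iris, trabecular tissue and most of the conjunctiva were removed, corneas went into 1 tube, and liberase followed by trypsin released the cells. Each group thus stands for 1 mouse, and some conjunctiva may remain.

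The members are cell barcodes chosen by their own transcripts. Levels are given as CPM, the UMIs of a gene scaled to 1000000 UMIs of the same cell or of the summed cells, where a UMI (unique molecular identifier) stands for 1 captured transcript. A barcode was kept if it held 2000 UMIs or more, of which 20% or less were mitochondrial. It was called Gpha2-high if it also held at least 3000 CPM of the basal keratins Krt5 and Krt14 together and at least 1000 CPM of Gpha2. Upper limits were 1500 CPM for the conjunctival keratins Krt4, Krt13 and Krt19 together and 300 CPM for the migration genes Actn1, Igfbp3 and Inhba together, and fewer than 4 of 8 mitotic genes (Mki67, Top2a, Ube2c, Cenpf, Birc5, Cdk1, Ccnb1 and Ccnb2) could be detected. Of 16889 barcodes in both libraries 2657 met the rule, 210 of 7490 uninjured and 2447 of 9399 injured ones. The levels of these genes chose the cells and are given below as a description only.

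The outer rim of the limbus holds stem cells that renew the corneal epithelium, and their daughters move towards the centre of the cornea while they take on corneal genes such as the keratin Krt12. Gpha2 encodes an alpha subunit of the glycoprotein hormone family, which pairs with the beta subunit Gphb5 to form thyrostimulin, a ligand of the thyrotropin receptor Tshr. In the mouse eye Gpha2 is known as a marker of slowly dividing cells of the outer limbus, together with Ifitm3 and Cd63, and Krt14 and Krt15 are keratins of basal limbal cells. An alkali burn can destroy this epithelium and draws inflammatory cells into the tissue.

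Sequence before the start site is shown for the gene that defines the cells and for 3 genes whose levels are described below, Ifitm3 as a limbal marker with like levels in both libraries, Areg as a growth factor gene that was higher in the injured library and Krt12 as a corneal gene that was lower. The windows hold the 250 bases before the start site in RefSeq, on build GRCm38.p6, read 5′ to 3′ on the strand of the gene. Gpha2 was read at chr19:6226151-6226400 on the plus strand, Ifitm3 at chr7:141010745-141010994 on the minus strand, Areg at chr5:91139349-91139598 on the plus strand and Krt12 at chr11:99422260-99422509 on the minus strand. Capitals mark matches, on either strand, to the AP-1 motif TGANTCA, the GC box GGGCGG or the TATA motif TATAAA.
Gpha2: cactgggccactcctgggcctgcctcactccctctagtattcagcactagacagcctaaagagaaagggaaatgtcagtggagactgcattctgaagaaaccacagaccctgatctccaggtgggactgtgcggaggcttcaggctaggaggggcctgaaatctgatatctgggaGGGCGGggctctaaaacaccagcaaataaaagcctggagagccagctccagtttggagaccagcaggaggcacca
Ifitm3: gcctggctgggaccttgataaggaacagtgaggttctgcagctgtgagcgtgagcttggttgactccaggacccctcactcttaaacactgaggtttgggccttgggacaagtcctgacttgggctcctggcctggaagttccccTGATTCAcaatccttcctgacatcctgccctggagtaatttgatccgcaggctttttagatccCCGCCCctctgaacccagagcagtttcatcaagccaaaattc
Areg: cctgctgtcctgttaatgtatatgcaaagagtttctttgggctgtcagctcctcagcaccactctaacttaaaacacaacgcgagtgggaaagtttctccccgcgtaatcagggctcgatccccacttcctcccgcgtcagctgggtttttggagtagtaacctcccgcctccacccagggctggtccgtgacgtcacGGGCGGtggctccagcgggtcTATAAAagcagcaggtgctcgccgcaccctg
Krt12: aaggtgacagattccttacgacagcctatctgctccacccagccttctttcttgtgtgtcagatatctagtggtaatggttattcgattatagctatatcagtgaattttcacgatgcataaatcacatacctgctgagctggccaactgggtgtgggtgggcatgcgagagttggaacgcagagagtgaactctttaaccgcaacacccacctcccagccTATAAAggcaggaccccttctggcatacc
The Gpha2 window held 1 GC box, 75 bases before the start, and neither other motif. Ifitm3 held an AP-1 match 105 bases and a GC box 42 bases before the start. Areg held a GC box 52 bases and a TATA match 31 bases before the start, and Krt12 a TATA match 29 bases before the start. Among 32536 distinct RefSeq windows of this length, 6.73% held the AP-1 motif, 33.0% the GC box and 12.3% the TATA motif. These are matches of letters, and no binding was measured. GENCODE M21 places the starts of Gpha2 and Ifitm3 further upstream than RefSeq does, so that the last 21 and 26 bases of these windows lie inside its genes. In that annotation, also on GRCm38, Gpha2 (ENSMUSG00000024784) spans chr19:6226380-6227768 on the plus strand, Krt15 (ENSMUSG00000054146) chr11:100131758-100135928 and Krt14 (ENSMUSG00000045545) chr11:100203162-100207548, both on the minus strand.

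The libraries held 85457541 UMIs in the uninjured and 108863350 UMIs in the injured mouse, and 6154 and 7765 barcodes were kept. Gpha2-high cells had a median of 9248 UMIs and 2337 genes in the uninjured library, against 10418 UMIs and 2520 genes in the injured one, and their summed counts were 2100324 and 26891839 UMIs. The lowest Gpha2-high cell held 4249 UMIs in the uninjured and 2126 in the injured library. Mitochondrial UMIs had a median share of 3.10% and 3.72%, and ribosomal protein genes took 33.6% and 38.1% of all UMIs of these cells. The libraries shared 15 barcode strings, none of them among the Gpha2-high cells. Both libraries carried the Y-linked transcript Ddx3y in these cells, at 49.04 and 36.3 CPM, with 1 and 2 UMIs of Xist. Each group is 1 library, so the spread between mice is unknown and nothing was tested. Intervals are 95% intervals, exact Poisson for levels, exact binomial (Clopper-Pearson) for shares and conditional binomial for ratios, and they cover counting error only.

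Gpha2-high cells made up 3.41% (2.97 to 3.90) of the kept barcodes in the uninjured library and 31.5% (30.5 to 32.6) in the injured library. The shares did not overlap in their counting intervals, and the injured share also stood higher under every alternative limit listed in the closing section. Among the cells that met every other condition, 210 of 4087 in the uninjured library (5.14%, 4.48 to 5.86) and 2447 of 2938 in the injured library (83.3%, 81.9 to 84.6) also passed the Gpha2 limit. A share of cells in a library depends on how many cells of every kind were recovered and on how many reached the Gpha2 limit. A greater number of such cells in the tissue, a smaller number of other cells and a higher Gpha2 level in basal cells cannot be told apart here. Cells in which only the limit on mitotic genes failed numbered 33 in the uninjured and 507 in the injured library, and cells in which only the limit on Actn1, Igfbp3 and Inhba failed numbered 2 and 845. The conjunctival keratin limit alone removed 6 and 147 cells.

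Inside the rule the level of Gpha2 per cell was alike in both libraries. It ranged from 1014 to 17144 CPM with a median of 3109 CPM in the uninjured cells, and from 1001 to 16737 CPM with a median of 3156 CPM in the injured cells. Summed over the cells Gpha2 stood at 3873 and 3541 CPM. The cells just under the limit differed more. The 3877 uninjured cells that met all other conditions but not the Gpha2 limit, called Gpha2-low below, had a median of 0 CPM, and 83.6% of them were under 100 CPM. The 491 Gpha2-low cells of the injured library had a median of 525 CPM, and 52.5% of them held at least 500 CPM. Within 250 CPM of the limit lay 19 cells inside and 38 outside in the uninjured library, and 142 inside and 145 outside in the injured library. The uninjured cells were thus mostly at 0 with a small Gpha2-high tail, while the injured cells formed 1 broad distribution that the limit crossed near its lower end. Gpha2-low cells are therefore not the same kind of remainder in both libraries. Likewise the rule took a small tail of the uninjured cells and most of the injured ones. Whether Gpha2-high cells are the same cell type in both libraries was not tested.

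**Figure D1:**
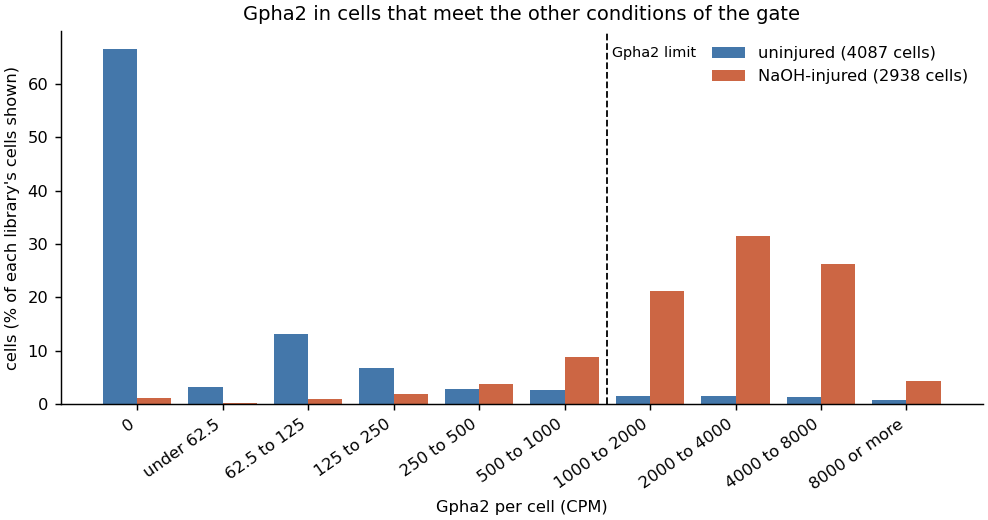
Share of cells (y axis, percent of each library's cells shown) by the Gpha2 level of the cell (x axis, CPM), for the 4087 uninjured (blue) and 2938 injured (orange) cells that met all other conditions; the dashed line marks the limit of 1000 CPM. Uninjured cells sit mostly at 0 CPM, with 5.14% past the limit, and 83.3% of the injured cells lie past it.

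The markers set for these cells were present in both libraries. Krt14, the basal keratin, stood at 8368 and 7467 CPM, Krt5, its partner, at 3788 and 2542 CPM, and Krt15, which the rule did not use, at 3191 CPM (3115 to 3268) in uninjured and 2776 CPM (2756 to 2796) in injured cells. Krt15 was detected in 98.6% and 99.96% of cells, and in 91.9% and 95.4% after each cell was thinned to 2000 UMIs. In stromal barcodes with little Krt5 and Krt14 (under 1000 CPM together), a measure of free RNA from broken cells, 15.6% and 24.7% of thinned cells held a Krt15 UMI, at median depths of 6053 and 11971 UMIs, so Krt15 in the Gpha2-high cells lay far above that level. The partners of the hormone subunit were nearly absent: Gphb5 gave 2 UMIs in the uninjured and 0 in the injured cells, and Cga, the other alpha subunit, and the receptor gene Tshr gave none in either library. A count of 0 is read as at most 3 UMIs, its one-sided 95% limit, which allows up to 1.43 CPM in the uninjured and 0.112 CPM in the injured cells.

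Markers of other cell types were not all at 0. The 7 stromal markers summed to 924 CPM in the uninjured and 693 CPM in the injured Gpha2-high cells, against 77840 and 44763 CPM in stromal barcodes, and 3 and 29 Gpha2-high cells held at least 10000 CPM of them. The 7 neutrophil markers summed to 70.5 and 99.7 CPM, and the 8 macrophage or dendritic markers to 13.8 and 94.9 CPM. Neutrophil markers were at 0 for 3 of 7 members in the uninjured and for none in the injured cells. Langerhans cell markers summed to 409 and 442 CPM, of which Epcam, also a gene of epithelia, gave 405 and 417 CPM and Cd74, an antigen presentation gene, 4.29 and 24.9 CPM, while their defining gene Cd207 had no UMI in either library. Erythrocyte markers had no UMI in either library, skin keratinocyte markers summed to 21.4 and 25.2 CPM, and goblet cell markers to 15.2 and 27.6 CPM. In all 9 uninjured and 93 injured Gpha2-high cells held at least 1000 CPM of stromal, neutrophil or macrophage markers. Values without these cells, an alternative chosen after seeing the data, are given beside the results described below that then changed their 2-fold call or moved by over 1.5 times.

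Of 20 limbal stem cell markers 17 were measured, meaning that their mean over the libraries reached 10 CPM. At least 2-fold higher in the injured cells were 3 and at least 2-fold lower 5, against 3.34% and 5.98% of all 6707 genes measured, and the median log2 ratio of the list was -0.47 against -0.02 for all genes. Without the cells that carry other cell types' markers 16 were measured and 2 were higher. The markers that are known to accompany Gpha2 in the outer limbus were within 2-fold. Ifitm3, an interferon-induced membrane protein gene, stood at 1276 CPM (1228 to 1325) and 1508 CPM (1494 to 1523), and Cd63, a tetraspanin gene, at 228 (208 to 249) and 247 CPM (241 to 253). Their ratios, injured over uninjured, were 1.18 (1.14 to 1.23) and 1.08 (0.987 to 1.19). Both are also high in stromal barcodes, Cd63 at 2248 and 2699.7 CPM and Ifitm3 at 1291 and 1742 CPM, so these genes do not set the cells apart from stroma. After thinning to 2000 UMIs, Cd63 was detected in 34.8% of Gpha2-high and 2.32% of Gpha2-low cells of the uninjured library. In the injured library these shares were alike, 35.9% and 36.0%. Ifitm1 stood at 1640.2 and 939.9 CPM, Sox9, a progenitor transcription factor gene, at 164 and 137 CPM, and Trp63, which encodes p63, the transcription factor of stratified epithelia, at 144 and 73.9 CPM, 1.95-fold lower (1.72 to 2.198) and thus just within 2-fold. Its log2 ratio of -0.96 was -1.11, past 2-fold, after thinning to 2000 UMIs per cell.

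The 5 lower limbal markers had different roles. Wnt6, a secreted Wnt ligand gene, stood at 43.3 CPM (34.9 to 53.2) in uninjured and 3.72 CPM (3.03 to 4.52) in injured cells, 11.7-fold lower (8.67 to 15.6). Ccnd2, which encodes cyclin D2, was 3.42-fold lower (3.13 to 3.72), at 324 against 94.8 CPM. Lrig1, a brake on EGF receptor signalling, stood at 42.4 and 15.2 CPM, the chemokine receptor gene Ackr3 at 58.1 and 23.1 CPM, and the transcription factor gene Cebpd at 569.9 and 228 CPM. Higher were Krt17, a keratin of activated epithelium, at 644 and 1542 CPM (2.395-fold, 2.27 to 2.53), Vim, the intermediate filament gene vimentin, at 43.3 and 134 CPM, and the chemokine gene Cxcl14 at 2.38 and 38.6 CPM. Krt17 depended on the limits, with a log2 ratio of 1.26 that was 0.86 at a Gpha2 limit of 2000 CPM and 0.98 without the conjunctival keratin limit. Vim and Cxcl14 stood at 4309.6 and 2060.0 CPM in injured stromal barcodes, and without the cells that carry other cell types' markers Cxcl14 stood at 1.99 and 5.24 CPM and Vim at 25.4 and 58.9 CPM. Bmi1, Tspan7 and Ngfr were within 2-fold at 9.18 to 22.4 CPM in either library, but the log2 ratio of Ngfr, -0.68, was -1.41 after thinning. Abcb5 had no UMI in either library, and Abcg2 and Lgr6 stayed under 3 CPM in both.

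**Figure D2:**
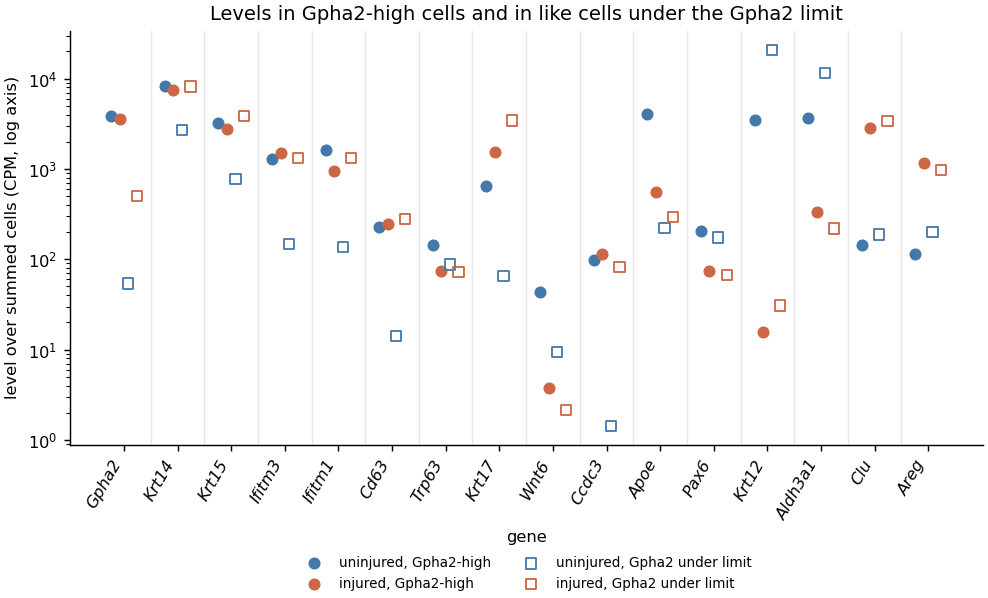
Level (y axis, CPM over summed cells, log axis) of 16 genes in Gpha2-high cells (filled circles) and in Gpha2-low cells that met all other conditions (open squares), uninjured in blue and injured in orange. Filled circles nearly coincide for Gpha2, Krt14, Krt15, Ifitm3, Cd63 and Ccdc3, and lie apart for Krt12, Aldh3a1, Apoe, Wnt6, Clu and Areg; error bars are left out because most are smaller than the symbols.

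Genes of corneal epithelial differentiation were lower in the injured Gpha2-high cells in most cases. Of 16 listed genes 14 were measured, 11 were at least 2-fold lower and 2 at least 2-fold higher, and the median log2 ratio was -3.25. In Gpha2-low cells the median of the same genes was -5.59, so the lower levels were not particular to Gpha2-high cells. Krt12, the keratin of corneal epithelium, gave 3461 CPM (3382 to 3541) in uninjured and 15.8 CPM (14.3 to 17.4) in injured cells, 219-fold lower (199 to 242). Per cell it had a median of 1498 CPM and a 10th to 90th percentile of 493 to 8430 CPM in the uninjured library, while the median and the 90th percentile were 0 CPM in the injured library. In uninjured stromal barcodes, which should lack it, Krt12 stood at 979 CPM, against 0.629 CPM in injured ones, so that some of the uninjured level may be free RNA; this share was not tested. Uninjured Gpha2-low cells held 20745 CPM, 5.99-fold the level of the Gpha2-high cells.

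Slurp1 and Lypd2, neighbouring genes of Ly6-family proteins, gave 927 and 1915 UMIs in the uninjured and 1 and 2 UMIs in the injured cells. The counting interval of the fold was 2125 to 469300 for Slurp1 and 3389 to 101304 for Lypd2. They stood at 441 and 912 CPM in the uninjured Gpha2-high cells and at 251 and 415 CPM in uninjured stromal barcodes, and the part of free RNA in the uninjured levels was not tested. Aldh3a1, the aldehyde dehydrogenase that serves as a corneal crystallin, stood at 3638 and 331 CPM, 10.98-fold lower (10.6 to 11.3), and Tkt, transketolase, at 2138 and 708 CPM, 3.02-fold lower (2.92 to 3.12). Aldh3a1 and Tkt were at 3690.0 and 1526 CPM in uninjured stromal barcodes, at 268 and 151 CPM in injured ones, and keratocytes are known to express both.

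Aqp5, a water channel gene, stood at 279 and 2.27 CPM, 123-fold lower (94.4 to 163). Mgarp, which encodes a mitochondrial protein, stood at 1259 and 26.96 CPM, 46.7-fold lower (42.99 to 50.8), and Upk1b, a uroplakin gene, at 101 and 11.7 CPM, 8.62-fold lower (7.21 to 10.3). Mgarp reached 3045 CPM in uninjured stromal barcodes, above its level in the Gpha2-high cells. Homer2, a scaffold protein gene, stood at 26.7 and 2.53 CPM, and the natriuretic peptide gene Nppb at 37.1 and 4.46 CPM. Clic3, a chloride channel family gene, stood at 17.6 and 4.13 CPM, and Ly6g6c and Dsg1a were below the limit for a measured gene, Dsg1a at 18.1 and 0.446 CPM. Members of the list did not all lie on the same side. Clu, which encodes the secreted chaperone clusterin, was 19.8-fold higher (17.7 to 22.2), at 144 and 2843 CPM, and Aldh1a3, a retinoic acid synthesis gene, 2.295-fold higher (1.89 to 2.81), at 50.5 and 116 CPM. Fabp5, a fatty acid carrier gene, stood at 2683 and 4344 CPM, within 2-fold.

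Across all genes, 224 of 6707 were at least 2-fold higher (3.34%) and 401 at least 2-fold lower (5.98%) in the injured Gpha2-high cells, and the 10th to 90th percentile of the log2 ratio was -0.75 to 0.53. When mitochondrial and ribosomal protein genes were left out of the total, log2 ratios moved by 0.12, and of the 8097 genes then measured 381 were higher and 448 lower. In Gpha2-low cells 8.42% of 6759 genes were at least 2-fold higher and 6.79% at least 2-fold lower in the injured library. Of the 15 genes with the largest ratio in each direction 14 are named here, by a rule that asks for at least 50 CPM, a UMI in at least 25% of cells, and a level of at least 25% of that in stromal and other barcodes. Of the 14 lower genes 7 nevertheless stood below their level in uninjured stromal barcodes with little Krt5 and Krt14, and of the 14 higher genes 3, Cxcl2, Msn and Sox4, stood below their level in injured ones. The part of free RNA in these levels was not tested.

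The named genes that were higher in the injured cells included secreted growth factors. Areg, which encodes amphiregulin, a ligand of the EGF receptor, stood at 115 CPM (101 to 131) in uninjured and 1171 CPM (1158 to 1184) in injured cells, 10.2-fold higher (8.96 to 11.6). Areg was detected in 23.3% of uninjured and 84.7% of injured cells, in 9.05% and 64.0% after thinning to 2000 UMIs, and in 2.02% and 4.73% of thinned stromal barcodes. Ereg, the related ligand epiregulin, stood at 3.81 and 151 CPM, 39.7-fold higher (20.1 to 91.9), with 8 UMIs in all uninjured cells. The genes are neighbours on the plus strand of chromosome 5, Ereg at chr5:91074622-91093646 and Areg at chr5:91139599-91148432. In Gpha2-low cells Areg stood at 199.8 and 983 CPM and Ereg at 3.14 and 128 CPM, so injured cells under the Gpha2 limit held like levels. The log2 ratio of Areg, 3.35, was 5.29 at a Gpha2 limit of 2000 CPM.

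Clu, the chaperone gene of the differentiation list, spread widely among injured cells, with a 10th to 90th percentile of 216 to 6617 CPM and a median of 1870 CPM, against 0 to 320 and a median of 116 CPM in the uninjured cells. Ly6a, known as the stem cell antigen Sca-1, stood at 92.8 and 657 CPM, 7.08-fold higher (6.15 to 8.19), and was detected in 40.5% and 98.3% of cells. Sox4, a transcription factor gene of progenitor cells, stood at 35.7 and 159 CPM, 4.44-fold higher (3.53 to 5.66). Genes of the cell cortex and cytoskeleton were Msn, the membrane linker moesin, at 15.7 and 136 CPM, Fscn1, the actin bundler fascin, at 11.9 and 57.2 CPM, and Nedd9, a focal adhesion scaffold gene, at 12.9 and 95.5 CPM. Anxa3, an annexin gene, stood at 24.8 and 118 CPM, and Noct, which encodes nocturnin, at 34.8 and 137 CPM. Moesin and Sca-1 transcripts were also higher in injured Gpha2-low cells, at 132 against 2.59 CPM and 758 against 23.1 CPM.

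Several named genes belong to families of near-identical copies, and reads may be shared among the copies. Cstdc5, a cystatin A-like gene, stood at 1667 and 8422 CPM, 5.05-fold higher (4.89 to 5.22). Serpinb3a, a serpin gene, stood at 40.5 and 213 CPM, and Sprr2a3, a cornified envelope gene, had 1 UMI in the uninjured cells and stood at 95.6 CPM in the injured cells. The counting interval of its ratio was 35.99 to 7931. Cxcl2, a neutrophil chemokine gene, stood at 4.76 and 197 CPM, 41.4-fold higher (22.5 to 86.3), with 10 UMIs in the uninjured cells. Its log2 ratio of 5.37 was 2.77 at a Gpha2 limit of 500 CPM. Cxcl2 reached 648 CPM in injured stromal barcodes, above its level in the Gpha2-high cells, and the part of free RNA in it was not tested. Without the cells that carry other cell types' markers it stood at 4.98 and 175 CPM.

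The named genes that were lower included genes of lipid handling, of detoxification and of stress responses. Apoe, the lipid carrier apolipoprotein E, stood at 4018 CPM (3933 to 4105) in uninjured and 556 CPM (547 to 565) in injured cells, 7.23-fold lower (7.04 to 7.42). Its 10th to 90th percentile per cell was 1302 to 7373 CPM in the uninjured and 0 to 1386 CPM in the injured library, so these ranges overlapped only at their edges. In Gpha2-low cells Apoe stood at 221 and 292 CPM, without the 2-fold difference. In stromal barcodes Apoe was also lower in the injured library, at 1837 and 144 CPM. Ces1d, a carboxylesterase gene, stood at 73.8 and 2.57 CPM, Pla2g7, a lipoprotein-associated phospholipase gene, at 68.6 and 5.28 CPM, and Fmo2, a flavin monooxygenase gene, at 51.9 and 4.87 CPM. Txnip, which encodes a thioredoxin inhibitor that responds to glucose, stood at 191 and 25.2 CPM, 7.57-fold lower (6.68 to 8.58). Aldh3a1, Mgarp and Upk1b of the differentiation list also belong to the 15.

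Gadd45b, a gene of the stress response, stood at 614 and 85.8 CPM, 7.15-fold lower (6.68 to 7.66), and Socs3, a feedback inhibitor of cytokine signalling, at 391 and 59.3 CPM, 6.59-fold lower (6.05 to 7.17). Cryab, the small heat shock protein alpha B crystallin, stood at 76.2 and 6.32 CPM, and Tppp3, a tubulin-binding protein gene, at 142 and 11.1 CPM. Mxra7 and Abi3bp, both linked to the extracellular matrix, stood at 129 and 18.4 CPM and at 137 and 21.5 CPM. Abi3bp stood at 140.0 and 11.8 CPM without the cells that carry other cell types' markers. In uninjured stromal barcodes Mxra7 stood at 499.7 CPM, Abi3bp at 294 CPM, Cryab at 183 CPM, Gadd45b at 1229 CPM and Socs3 at 449 CPM, all above their levels in the Gpha2-high cells. In Gpha2-low cells Gadd45b stood at 127 and 85.3 CPM, Cryab at 37.97 and 30.4 CPM and Tppp3 at 16.9 and 10.9 CPM, all within 2-fold, and Abi3bp was higher in the injured library there, at 38.8 against 14.2 CPM. Gadd45b, Cryab, Tppp3 and Abi3bp were higher in Gpha2-high than in Gpha2-low cells of the uninjured library. Mxra7, at 129 CPM in Gpha2-high and 236 CPM in Gpha2-low cells there, and Socs3, at 391 and 296 CPM, were within 2-fold.

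**Figure D3:**
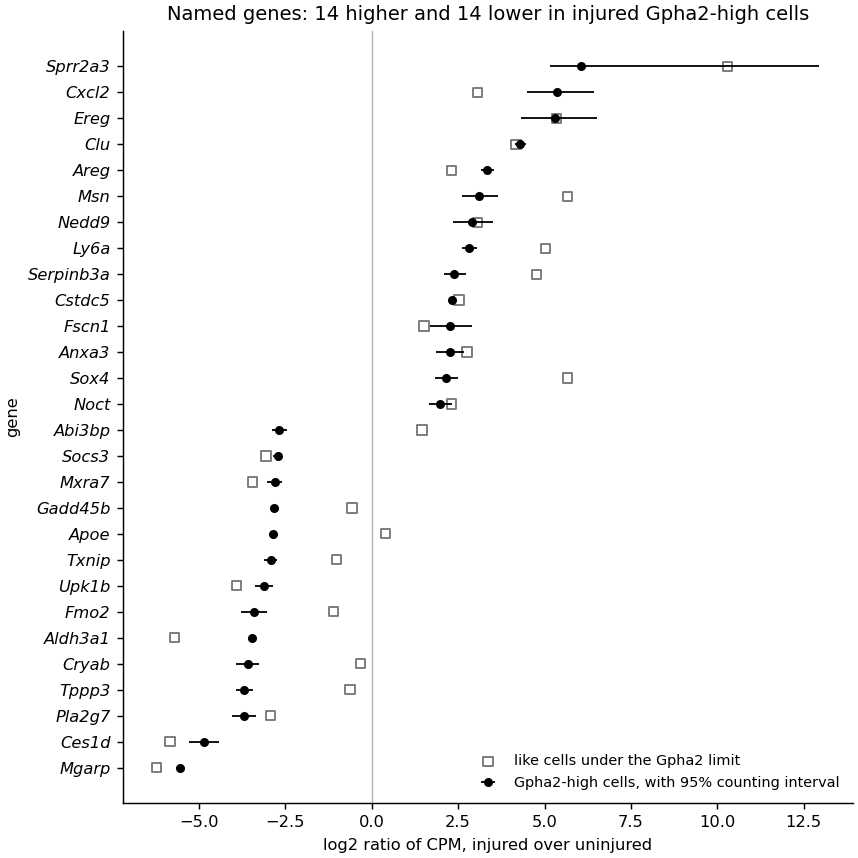
Log2 ratio of CPM, injured over uninjured (x axis), of 14 of the 15 genes with the largest ratio in each direction (y axis) in Gpha2-high cells (black points, bars are 95% counting intervals) and in Gpha2-low cells (grey squares); counts under 3 were set to 3 for the points, which applies to Sprr2a3. Apoe, at 0.40, and Abi3bp, at 1.45, lie on the other side of 0 in Gpha2-low cells, and the other 26 genes lie on the same side in both.

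Pathway lists were examined for the signals that these cells send and receive, and their counts stand beside 3.34% higher and 5.98% lower over all genes measured. Of 10 measured EGF receptor ligands and receptors 3 were at least 2-fold higher and 1 lower, median log2 ratio -0.12. The higher ones were the ligand genes Areg, Ereg and Epgn, the last at 22.4 and 53.1 CPM (2.37-fold, 1.78 to 3.25), and the lower one was the ligand gene Nrg1, at 124 and 39.5 CPM (3.14-fold, 2.73 to 3.597). Hbegf, another ligand gene, stood at 758 and 614 CPM, and the receptor gene Egfr at 90.9 and 52.4 CPM, both within 2-fold. Epgn lay the other way in Gpha2-low cells, at 148 CPM uninjured and 34.98 CPM injured.

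Of 12 measured Wnt pathway genes none was at least 2-fold higher and 3 were lower, median -0.44. They were the ligand genes Wnt6, given above, and Wnt10a, at 158 and 55.4 CPM, and the secreted Wnt modulator Dkk3, at 80.9 and 30.7 CPM. Sfrp1, a secreted inhibitor, stood at 247 and 125.1 CPM, 1.97-fold lower (1.797 to 2.17), and the interval of this ratio includes 2. Of 8 measured Notch pathway genes 2 were lower, the receptor gene Notch1 at 115 and 48.4 CPM and the ligand gene Dll1 at 82.8 and 33.5 CPM, with a median of -0.63, and the target gene Hes1 stood at 130.5 and 79.7 CPM. In the TGF-beta and BMP list 2 of 16 were higher and 5 lower, median 0.07. The higher ones were the ligand gene Bmp2, at 17.6 and 35.6 CPM, and Ltbp1, which holds latent TGF-beta in the matrix. Bmp2 stood within 2-fold, at 18.4 and 35.96 CPM, without the cells that carry other cell types' markers. Ltbp1 stood at 9.998 and 52.2 CPM, and was at 229.6 CPM in injured stromal barcodes. The BMP target genes Id1 and Id3, inhibitors of differentiation factors, were 5.19-fold (4.94 to 5.46) and 3.84-fold (3.63 to 4.06) lower, Id1 at 1049 and 202 CPM and Id3 at 768 and 200.2 CPM. The other lower genes of this list were Id2, the receptor gene Tgfbr1 and the ligand gene Tgfb2, by 2.26-fold, 2.19-fold and 2.001-fold. In Gpha2-low cells Id1 stood at 131 and 191 CPM.

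Among 27 measured epithelial transcription factor genes 1 was at least 2-fold higher, Sox4, and 9 were lower, median -0.75. Pax6, the master regulator of eye development, stood at 207 CPM (188 to 228) and 74.5 CPM (71.3 to 77.9), 2.78-fold lower (2.4998 to 3.08), and at 174 and 66.7 CPM in Gpha2-low cells. Klf3 stood at 216 and 76.4 CPM, and Myc at 113 and 44.96 CPM. Klf4, Klf5 and Klf6, epithelial zinc finger factors, were within 2-fold, at 542 and 661, at 475 and 451, and at 557 and 597 CPM.

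Immediate early genes, a fast response to growth factors, to stress and also to tissue dissociation, were at least 2-fold lower in 8 of 15 measured members and higher in none, median -1.18. Without the cells that carry other cell types' markers 9 were lower, as Egr3 passed 2-fold at 51.8 and 24.6 CPM. Fos stood at 3642 CPM (3561 to 3724) and 779 CPM (768 to 789), 4.68-fold lower (4.55 to 4.8003). Zfp36, an RNA-decay factor gene, was 5.75-fold lower (5.39 to 6.14), at 635 and 110.4 CPM, Klf2 stood at 94.7 and 20.2 CPM and Nr4a1 at 244 and 57.4 CPM. Jun stood at 2724 and 1442 CPM, within 2-fold. In stromal barcodes Fos was also lower in the injured library, at 5208 and 2221 CPM. The part of tissue dissociation in this difference was not tested. All 4 inner limbal and metallothionein genes were lower, median -1.47: Atf3, a stress transcription factor gene, at 1483 and 517 CPM, the metal-binding genes Mt1 at 4372 and 1634 CPM and Mt2 at 1962 and 965 CPM, and Socs3, given above. Mt1 and Mt2 were higher in injured than in uninjured stromal barcodes, at 2227 against 717 CPM and 942 against 337 CPM.

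Genes of cell cycle exit had 1 of 11 measured members higher and 2 lower, median -0.19. The cell cycle inhibitor gene Cdkn1a, which encodes p21, stood at 407 and 368 CPM, the higher member was the cyclin G2 gene Ccng2, at 10.5 and 24.7 CPM, and the lower members were Txnip and Gas1, a growth arrest gene, at 115 and 38.4 CPM. Of 19 measured cell cycle genes that the rule did not use 3 were higher and 3 lower, median 0.19. The higher ones were subunits of the replication helicase, Mcm3 at 18.1 and 37.9 CPM, Mcm4 at 19.997 and 41.3 CPM and Mcm6 at 18.6 and 43.9 CPM, and the lower ones were the cyclin D genes Ccnd1, at 433 and 162 CPM, Ccnd2, given above, and Ccnd3, at 41.4 and 19.8 CPM. These are cells from which mitotic cells had been removed by the rule.

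Chemokine and cytokine genes were at least 2-fold higher in 6 of 11 measured members and lower in none, median 3.94. These 6, Cxcl2, Cxcl5, Ppbp, Cxcl14, Ccl2 and Csf3, stood under 10 CPM in the uninjured cells. They counted as measured only through their injured level, so this count and median follow in part from the limit on level. Without the cells that carry other cell types' markers 8 were measured, Cxcl2, Csf3 and Ppbp were higher and the median was 0.76. With all cells the median was 0.81 over genes with a mean of at least 1 CPM and 1.44 after thinning. It was 1.01 without mitochondrial and ribosomal protein genes in the total. The part of the cells with other markers in the lower median was not tested. Csf3, the granulocyte colony-stimulating factor gene, stood at 4.76 CPM, from 10 UMIs, and 73.1 CPM, 15.3-fold higher (8.33 to 32.1), and at 115 CPM in injured stromal barcodes. Without those cells Csf3 stood at 2.99 and 69.9 CPM. Ppbp, which encodes the chemokine CXCL7, had no UMI in the uninjured cells and stood at 34.03 CPM in the injured cells, at least 23.8-fold higher against the limit of 3 UMIs over the group, while the lower bound of the counting interval was 19.3-fold. Ccl2 and Cxcl5, at 32.2 and 31.8 CPM in the injured cells, were at 9.59 and 10.02 CPM without those cells and stood at 1323 and 1944 CPM in injured stromal barcodes. Cxcl1, a neutrophil chemokine gene, stood at 57.1 and 106 CPM, within 2-fold.

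Antimicrobial and mucosal defence genes were higher in 8 of 11 measured members and lower in 1, median 2.39. Of the higher ones Slpi, S100a8, Lyz2, Saa3 and Sprr2a3 stood under 10 CPM in the uninjured cells. They counted as measured only through their injured level, so this count and median follow in part from the limit on level. Without the cells that carry other cell types' markers 5 of 8 were higher and 1 of 8 was lower, median 1.22. With all cells the median was 1.53 after thinning and 1.23 over genes with a mean of at least 50 CPM. Wfdc2, a protease inhibitor gene of mucosal surfaces, stood at 776 CPM (739 to 815) and 1815 CPM (1799 to 1831), 2.34-fold higher (2.23 to 2.46), with 13.7 and 45.6 CPM in stromal barcodes. Wfdc18, of the same family, stood at 13.3 and 227 CPM, 17.04-fold higher (11.8 to 25.7). Lcn2, which encodes a protein that binds bacterial iron carriers, stood at 29.995 and 28.5 CPM, within 2-fold. The lower member was the beta defensin gene Defb1, at 110.0 and 50.6 CPM. Saa3 and Lyz2 stood at 20.7 and 35.5 CPM in the injured cells and at 2.58 and 9.51 CPM without the cells that carry other markers. Interferon-stimulated genes were lower in 4 of 12 and higher in none, median 0.03, with Irf1 at 163 and 27.5 CPM, Ifi27l2a at 56.7 and 7.47 CPM, Ifi27 at 126 and 56.7 CPM and Irf9 at 24.3 and 11.8 CPM. None of 9 NF-kappaB pathway genes and none of 5 MHC class I genes passed 2-fold, with medians of 0.20 and 0.28. The NF-kappaB regulator gene Nfkbiz stood at 149 and 75.4 CPM, and past 2-fold at 148 and 71.7 CPM without the cells that carry other markers. The NF-kappaB median turned to -0.47 over genes with a mean of at least 50 CPM.

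None of 18 measured basal cell adhesion and hemidesmosome genes passed 2-fold in either direction, and their median was -0.01. Over all genes 3.34% were higher and 5.98% lower, so few members of a list of this size would be called at those shares. Itga5, below the limit for a measured gene, stood at 5.71 and 12.1 CPM, past 2-fold. The integrin gene Itga6 stood at 398 and 364 CPM, its partner Itgb4 at 164 and 173 CPM and the hemidesmosomal collagen gene Col17a1 at 506 and 391 CPM. Cell junction genes were lower in 3 of 16, median -0.48, the claudin genes Cldn7, at 204 and 91.9 CPM, and Cldn1, at 66.7 and 33.1 CPM, and the desmosomal gene Dsc3, at 240.0 and 119 CPM. Without the cells that carry other cell types' markers Cldn1 was within 2-fold, at 64.8 and 33.96 CPM, and the connexin gene Gjb2 was higher, at 20.4 and 42.6 CPM, so that 1 was higher and 2 were lower. Of 18 measured migration genes outside the rule 3 were higher and 1 lower, the latter near the share over all genes, median 0.36, with the tropomyosin gene Tpm1 at 106 and 281 CPM, the protease gene Plau at 14.3 and 52.3 CPM and tenascin C (Tnc) at 3.33 and 32.4 CPM. Fn1, fibronectin, was lower, at 94.7 and 28.6 CPM. In injured stromal barcodes Tnc was at 431 CPM and Fn1 at 1463 CPM, and without the cells that carry other markers Tnc stood at 1.49 and 26.8 CPM and Fn1 at 90.7 and 14.01 CPM in the Gpha2-high cells.

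Of 8 measured further keratins 2 were higher and 3 lower, median -0.28. Krt16 stood at 596 and 177 CPM, 3.37-fold lower (3.17 to 3.59), while Krt6a, its partner in wounded epithelium, stood at 419 and 416 CPM. The other lower keratins were Krt12 and Krt18, a keratin of simple epithelium, at 49.5 and 21.5 CPM. Krt17 was higher, as given above, and so was Krt7, a keratin of conjunctiva, 2.94-fold higher (2.36 to 3.701), at 39.5 and 116 CPM. Of 5 measured conjunctival and goblet genes Krt7 was higher and 3 were lower, Krt18, the water channel gene Aqp3 at 560.4 and 273 CPM and Psca at 19.04 and 4.35 CPM, median -1.04, and this median turned to 0.15 without the Krt4, Krt13 and Krt19 limit. Cornified envelope and serpin genes were higher in 2 of 12, Sprr2a3 and Serpinb3a, and lower in none, median 0.14.

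Of 17 measured glycolysis and hypoxia genes none was at least 2-fold higher and 1 was lower, near the 5.98% of all genes, the hypoxia target Egln3 at 66.2 and 29.9 CPM, with a median of 0.44, Gapdh at 628 and 981 CPM and Pgk1 at 115 and 207 CPM. Oxidative stress and glutathione genes were higher in 2 of 17 and lower in 3, median 0.06. The glutathione synthesis gene Gclm was 2.18-fold higher (1.87 to 2.56) at 80.9 and 177 CPM, and the transferase gene Gsta4 3.48-fold lower (3.33 to 3.62) at 1356 and 390.1 CPM. Gpx2 was the other higher gene, at 5.71 and 14.5 CPM, and Gstm1 and Nqo1 were the other lower ones, at 139.5 and 60.9 CPM and at 17.6 and 4.76 CPM. Heat shock genes were lower in 1 of 11 and higher in none, median -0.41, the lower one being Dnajb1 at 889 and 304 CPM.

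**Figure D4:**
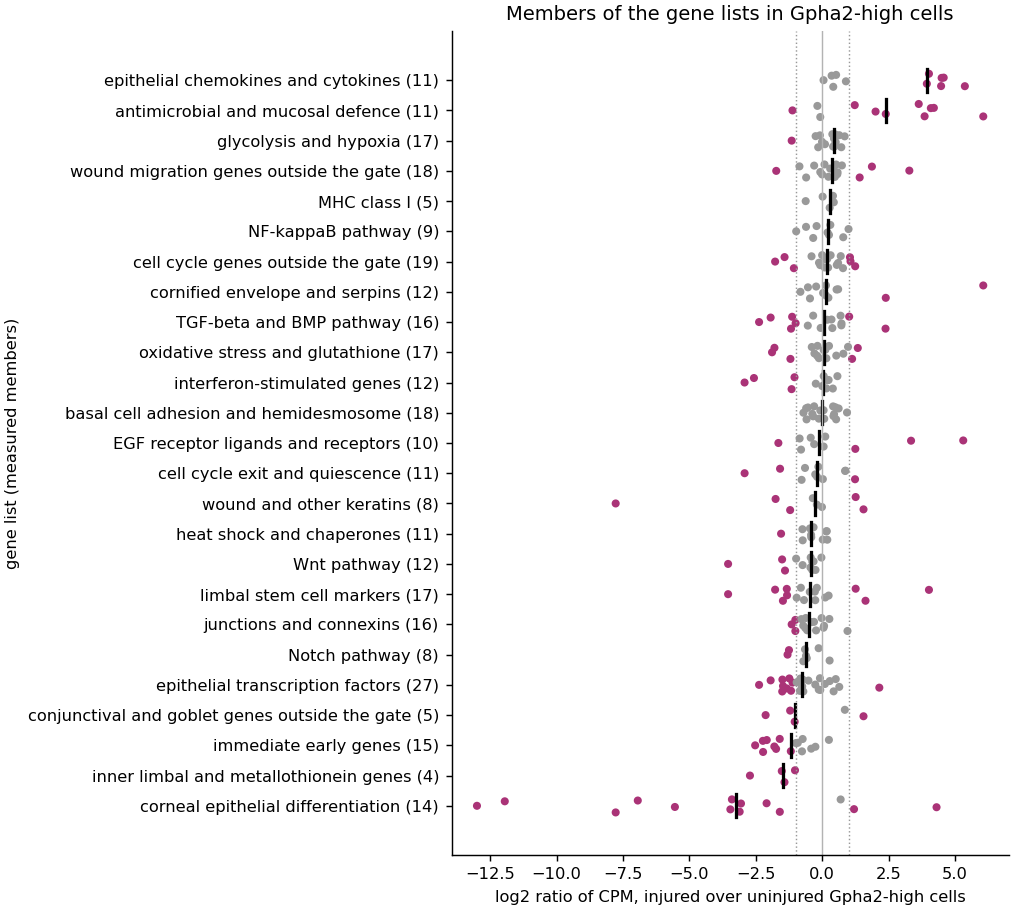
Log2 ratio of CPM, injured over uninjured Gpha2-high cells (x axis), of each measured member of 25 gene lists (y axis, with the number of measured members), ordered by median (black bars); purple points are at least 2-fold different and dotted lines mark 2-fold. Counts under 3 were set to 3. Basal cell adhesion genes all lie inside the dotted lines, and corneal differentiation genes have the lowest median, -3.25.

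Within each library Gpha2-high cells were set beside Gpha2-low cells as a description, because Gpha2 chose them. In the uninjured library 430 of 6718 genes (6.4%) were at least 2-fold higher and 332 (4.94%) at least 2-fold lower in the Gpha2-high cells, and in the injured library 9 of 6674 (0.135%) and 124 (1.86%). The uninjured Gpha2-low cells had a median of 0 CPM of Gpha2 and the injured ones of 525 CPM, so these counts compare unlike remainders. Among genes that met the limits for named genes, the largest ratio in the uninjured library was that of Ccdc3. This gene, which encodes a secreted coiled-coil protein, stood at 99.03 CPM in Gpha2-high and 1.43 CPM in Gpha2-low cells. It stood at 113 CPM in injured Gpha2-high cells, 1.14-fold (0.993 to 1.32) the uninjured level. Atp1b1, a sodium pump subunit gene, stood at 57.6 and 2.07 CPM, Csrp2, a LIM domain gene, at 119.5 and 5.08 CPM, and Igfbp7, a secreted binding protein gene, at 271 and 15.5 CPM. The other genes named by this ratio were Apoe, Fmo2, Rnase4, Adamts1, Ifitm1 and Ptn. Adamts1, a matrix protease gene, and Ptn, the growth factor pleiotrophin, were within 2-fold between the libraries, at 238 and 225 CPM and at 135 and 100.3 CPM.

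In the injured library the largest Gpha2-high over Gpha2-low ratio among genes that met the same limits was that of Fndc1. This fibronectin domain gene stood at 56.3 and 10.6 CPM. It was followed by Kitl, the ligand of the receptor Kit known as stem cell factor, at 51.7 and 19.5 CPM, Gadd45g, of the same stress gene family as Gadd45b, at 64.3 and 30.5 CPM, and Apoe at 556 and 292 CPM. In the uninjured library Fndc1 stood at 77.1 and 9.18 CPM and Kitl at 119.5 and 19.8 CPM. The other genes named by this ratio in the injured library were Tmprss11a, Kctd1, Socs3, Procr, Zfas1 and Prxl2a, with ratios of 1.58 to 1.85.

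Gpha2-high cells were then divided into those with 1000 to under 2000, 2000 to under 4000 and at least 4000 CPM of Gpha2, 62, 65 and 83 cells in the uninjured and 623, 924 and 900 cells in the injured library. Median depth was lower where Gpha2 was higher, 10110, 9454 and 8171 UMIs in uninjured and 11512, 10632 and 9709 UMIs in injured cells, and its part in the differences between bands was not tested. Apoe stood at 2289.9, 4242 and 5455 CPM from the lowest to the highest band in the uninjured library, and at 362, 533 and 744 CPM in the injured library. Kitl stood at 58.4, 101 and 196 CPM and at 27.98, 45.9 and 77.9 CPM, and Fndc1 at 42.4, 78.4 and 109 CPM and at 29.7, 50.1 and 85.4 CPM. Each of these was higher in a higher band in both libraries, and so was Fabp5, at 2202, 2581 and 3244 CPM and at 3285, 4184 and 5404 CPM.

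The opposite order was seen for keratins of differentiated or activated epithelium. Krt6a stood at 605, 416 and 242 CPM in the uninjured and at 631, 399 and 257 CPM in the injured bands, nearly the same levels in both libraries. Krt12 stood at 5980.2, 2847 and 1648 CPM in the uninjured bands and at 13.0 to 19.2 CPM in the injured bands, where it had no such order. Krt17 was ordered in the injured library, at 2104, 1482 and 1143 CPM, and not in the uninjured library, at 464, 877 and 587 CPM. Krt7 and Wfdc18 also had lower levels in higher injured bands, Krt7 at 200.4, 108 and 54.98 CPM and Wfdc18 at 474, 199 and 53.7 CPM. In the uninjured bands Krt7 lay between 32.1 and 47.6 CPM and Wfdc18 between 10.2 and 15.4 CPM. Other genes hardly differed between injured bands, Krt14 at 7508, 7385 and 7525 CPM and Areg at 1132, 1244 and 1121 CPM. In the uninjured library Areg was at 291 CPM in the lowest band and at 25.7 and 35.01 CPM in the others, so its ratio between libraries depends on the Gpha2 limit.

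**Figure D5:**
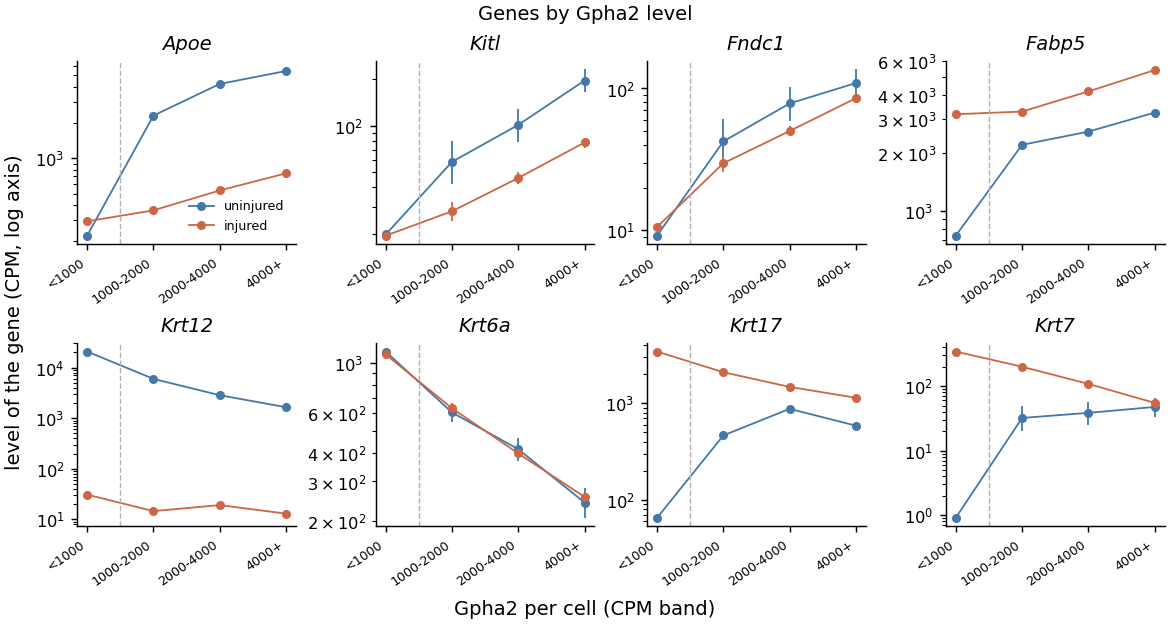
Level (y axis, CPM over summed cells, log axis, scaled to each panel) of 8 genes by the Gpha2 level of the cell (x axis, CPM band), in the uninjured (blue) and injured (orange) library; bars are 95% counting intervals, the dashed line is the limit of 1000 CPM, and the point left of it is Gpha2-low cells. Apoe, Kitl, Fndc1 and Fabp5 are higher in each higher band in both libraries, Krt6a is lower in both at nearly the same levels, and Krt17 and Krt7 are lower only across the injured bands.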

How the data were processed

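The deposited matrices hold raw UMI counts of 32285 genes per cell barcode, made by the authors with Cell Ranger 7.0.1, as the file headers say; the submitters' processing notes name the build GRCm38, and the sources used here do not give the chemistry or the annotation release. Gene coordinates came from GENCODE M21, which matched 32158 genes by identifier and left 127 unmatched, and promoter windows from RefSeq, which held 6 of 8 genes looked up. The Krt14 window there lies wholly inside the GENCODE gene and is not shown.

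Counts were summed over Gpha2-high cells per library and divided by their total (Python 3.11.15, numpy 2.4.6, scipy 1.17.1, pandas 2.3.3). For ratios, counts under 3 over a group were set to 3. Genes whose 2 library levels had a mean of at least 10 CPM count as measured, genes that chose the cells left out of counts over all genes. With 1 library per group nothing was tested, and higher or lower means at least 2-fold. Stromal barcodes held at least 10000 CPM of Dcn, Lum, Col1a1 and Col1a2 together. Stromal levels and shares in the results are of those with under 1000 CPM of Krt5 and Krt14 together, 397 uninjured and 761 injured barcodes. The rule for named genes used all stromal barcodes, 458 uninjured and 879 injured. Shares after thinning use 2000 UMIs per cell, a depth that every kept barcode reached. No doublets were removed: Scrublet, as provided in scanpy 1.11.5, marked 0.534% and 0.0213% of barcodes by its automatic threshold, so removal of its highest scores at an assumed 0.8% per 1000 barcodes served only as an alternative. It took out 10 and 202 Gpha2-high cells.

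Named genes were, in each direction, the 15 that differed most, of which 1 in each direction is not reported here, and the 10 with the largest Gpha2-high over Gpha2-low ratio in each library, under the limits given above, without hemoglobin, predicted, sex-linked, ribosomal and mitochondrial genes, and up to 4 members with the largest ratio per list. Further list members were named after their values were seen. The rule, the members and the lists were chosen with earlier results of these data known. Calling by 2-fold was also run on simulated counts, which cannot supply the unknown spread between mice.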

Additional observations from a re-analysis of the deposited data

How the results depend on the processing

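The share of kept barcodes that were Gpha2-high moved with its limits. With Gpha2 limits of 500 and 2000 CPM it was 5.102% and 2.405% in the uninjured and 34.8% and 23.5% in the injured library, and without the limit on mitotic genes 3.95% and 38.04%. In the injured library alone it moved to 33.2% at a depth of at least 5000 UMIs, 29.7% at a conjunctival keratin limit of 750 CPM, 33.4% without that limit, 42.4% without the migration gene limit and 30.3% without cells that carry other cell types' markers. At least 2-fold higher were 403 genes after thinning, 381 without mitochondrial and ribosomal genes in the total, 628 at a mean of at least 1 CPM and 59 at 50 CPM, and lower were 615 after thinning, 1414 at 1 CPM and 126 at 50 CPM, where the limits on level alter how many genes enter. The median of conjunctival and goblet genes turned to 0.15 without the conjunctival keratin limit, and the cause was not tested.

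The 28 genes named for the largest ratios kept their direction and stayed at least 2-fold different in all 392 values over the alternatives. They were chosen by these same ratios and the alternatives reuse the same 2 libraries, so this is no independent support. Of 840 values for 60 single genes 835 kept their sign, and of 398 list medians 364. The log2 ratio of Areg was 5.29 at a Gpha2 limit of 2000 CPM in place of 3.35, and that of Cxcl2 was 2.77 at 500 CPM in place of 5.37. That of Trp63 was -1.11 after thinning in place of -0.96. Thinning also moved Sprr2a3 to 3.61 from 6.06, Ereg to 4.31 from 5.31, Fscn1 to 1.57 from 2.26 and Cxcl14 to 1.65 from 4.02, and without the conjunctival keratin limit Aqp5 was -4.18 in place of -6.94 and Clic3 -1.21 in place of -2.09. At a mean of at least 50 CPM the medians of the TGF-beta and BMP, NF-kappaB and interferon lists were -0.59, -0.47 and -0.58 over fewer genes, in place of 0.07, 0.20 and 0.03. No paired analysis was possible because each group has 1 library, and no library could be left out for the same reason. The 210 uninjured cells set the counting error of low genes, at 0.476 CPM per UMI.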

Other observations

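Gpha2 was also found in barcodes with stromal transcripts and little basal keratin. Of 397 such barcodes in the uninjured library 79 (19.9%, 16.1 to 24.2) held at least 1000 CPM of Gpha2, and of 761 in the injured library 75 (9.86%, 7.83 to 12.2), with highest values of 27745 and 56147 CPM. The 79 uninjured barcodes held Gpha2 at 3795 CPM, decorin (Dcn) at 47684 CPM and keratocan (Kera), a gene of corneal keratocytes, at 4384 CPM, against 140 CPM of Krt14 and 66.8 CPM of Krt15. The 75 injured barcodes held Gpha2 at 7736 CPM, Dcn at 17400.5 CPM and Kera at 123 CPM, against 185 CPM of Krt14 and 152 CPM of Krt15. Krt14 in the stromal barcodes under the Gpha2 limit was alike, at 142 and 202 CPM.

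Barcodes low in both basal keratins and stromal genes, a mixed remainder that can include surface epithelium, endothelium and immune cells, held Gpha2 at 21.2 CPM in the uninjured (93 barcodes) and 43.9 CPM in the injured library (520 barcodes), with a UMI in 9.68% and 26.2% of them at median depths of 4775 and 5553 UMIs. Both divisions were set after seeing the data.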
